A study of Allium sativum with 42 samples.

Results

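Libraries of garlic (Allium sativum) labelled flowers were compared with libraries labelled garlic sprouts of the same cultivar, Ershuizao, by RNA-seq. Flower and sprout are used below as the labels give them. Every gene with at least 1 FPKM in at least 3 of the 6 libraries entered the comparison, which held 28573 of the 58219 gene IDs in the deposited table. FPKM counts sequenced fragments relative to transcript length and to the mapped fragments of the library. The flower group held 3 libraries labelled 217 days and the sprout group 3 libraries labelled 212 days. No treatment, mutation or transgene was named for either group. The series held another 36 libraries in 12 groups of 3, which were buds labelled 10 days, leaves, pseudostems (the false stem of rolled leaf bases) and roots labelled 212 days, and bulbs of 8 ages from 192 to 227 days. These libraries shared no sample with the comparison and were used to place its genes.

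Garlic is grown from cloves, and its bulb is a set of swollen storage leaves. The flowering plant raises a stalk topped by an umbel in which flowers and small aerial bulbils can stand side by side. Leaves and other green shoots carry the chloroplasts that fix carbon, whereas bulb scales and other storage organs build up reserve proteins and carbohydrates. The labels do not say which part of the shoot was taken as a sprout, nor whether bulbils were included with the flowers.

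Age and tissue cannot be told apart here by the labelled ages. The growth protocol, unlike the labels, gives a single harvest date for flowers, sprouts and the other tissues. The labels do not state whether the replicates were different plants, so each p-value covers the spread among these samples only, which may be technical. The table pairs its IDs with no gene names or functions, so floral and shoot marker genes could not be checked and gene roles are not given. IDs are printed for 2 genes that were higher and 2 that were lower in flower, and other genes are described by their level and pattern. The titles of the flower libraries end their letter code in LJ, as those of the bulb libraries do, and the labels explain neither code. By whole profile the flower libraries were nearest to bulbs of 217 to 227 days, as given in full after the gene results.

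Whole reads recovered from the FPKM values summed to 24.6, 30.5 and 24.7 M in the flower libraries and to 21.6, 22.3 and 17.8 M in the sprout libraries. For the median gene, 1 FPKM stood for 19.5, 24.0 and 19.5 reads in flower, against 17.4, 18.1 and 14.5 reads in sprout. Log2 levels of replicates correlated across genes at r between 0.961 and 0.976 in flower and between 0.948 and 0.971 in sprout. Genes are not independent replicates, and these values describe likeness only. The median SD of a gene among replicates was 0.22 log2 units in flower and 0.23 in sprout, and 288 genes in flower against 706 in sprout had an SD above 1.

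Flowers and sprouts differed widely. Of the 28573 genes, 2743 were higher in flower and 5925 were lower, which are 9.6% and 20.7% of the genes tested, and 19905 were not called. Genes were called in limma on log2(FPKM + 1) where the p adjusted over all genes tested (Benjamini-Hochberg) was under 0.05 and the log2 difference was 1 or more in size. All differences are flower minus sprout on this scale, which understates the change of genes near or below 1 FPKM. Without the size limit, 3950 genes were higher and 10656 lower in flower at an adjusted p below 0.05. In bulk tissue, fewer cells of a type and less RNA per cell cannot be told apart.

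The balance of calls depended on the scaling of the libraries. The median log2 difference of all tested genes was -0.34 on the deposited scale, with quartiles at -0.88 and 0.17. Median-of-ratios scaling moved this median to -0.0024 and gave 3826 genes higher and 3895 lower. The share of higher genes among all calls was 31.6% on the deposited scale and 49.6% after that scaling. All 2743 genes higher in flower kept their call, and 3895 of the 5925 lower genes did. The scaling moves all genes of a library alike and brings the median difference near 0, so the balance of calls after it, and the calls kept on the higher side, follow largely from its construction.

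**Figure D1:**
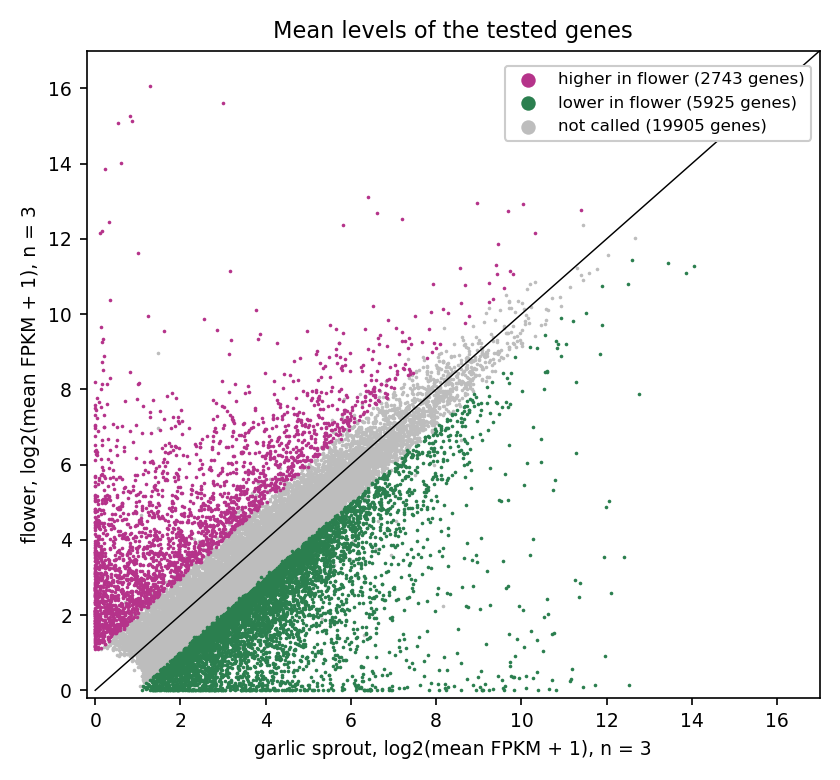
Mean level of each of the 28573 tested genes in flower (vertical axis) and garlic sprout (horizontal axis), both as log2(mean FPKM + 1) over 3 libraries, with the line of equal level. The 2743 genes higher in flower include a cluster of points near the left edge and high on the vertical axis, with means over 10000 FPKM in flower and of 0.181 to 6.96 FPKM in sprout, while the 5925 lower genes form a broad band below the line.

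Large differences were found in both directions. An absolute log2 difference of 2 was reached by 1288 higher and 1898 lower genes, and one of at least 3 by 635 higher and 765 lower genes. At 5 or more, 136 genes were higher and 204 lower in flower. At 8 or more, there were 21 higher and 59 lower genes. Among called genes, the median log2 difference was 1.91 for those higher and -1.57 for those lower in flower.

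The share of called genes varied with the level of expression. Below a mean of 2 FPKM over the 6 libraries, 363 of 3850 genes were higher (9.43%) and 577 lower in flower. Between 2 and 10 FPKM the shares were 8.93% higher and 22.8% lower of 11178 genes. At 200 FPKM or more they were 15.7% higher and 25.7% lower of 814 genes. The median standard error of a difference lay between 0.19 and 0.23 in every band, so precision on this scale varied little with level.

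The flower libraries held a small group of extremely abundant transcripts. A set of 7 genes had a mean of at least 10000 FPKM in flower and held 22.0% ± 3.40 of all summed FPKM there (SD, n = 3). The same 7 genes held 0.000985% ± 0.000633 in sprout, where each was below 10 FPKM. All 7 were among the genes called higher in flower. In sprout, 3 genes reached 10000 FPKM, and these held 0.619% ± 0.0663 of the flower pool and 3.82% ± 0.80 of the sprout pool. Their means in flower lay between 2178 and 2601 FPKM, and all 3 were called lower there.

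Summed over its 100 most abundant genes, a library had 42.6, 37.4 and 38.2% of its FPKM there in the 3 flower libraries, against 24.5, 23.4 and 22.2% in the 3 sprout libraries. The 3 flower libraries all lay above the 3 sprout libraries, with a mean difference of 16.0 percentage points. An exact permutation test, 2-sided, gave p = 0.1, the smallest p that 3 against 3 libraries allow. The 20 most abundant genes held 29.0% in flower and 11.1% in sprout, and the 500 most abundant held 53.8% in flower and 41.8% in sprout.

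**Figure D2:**
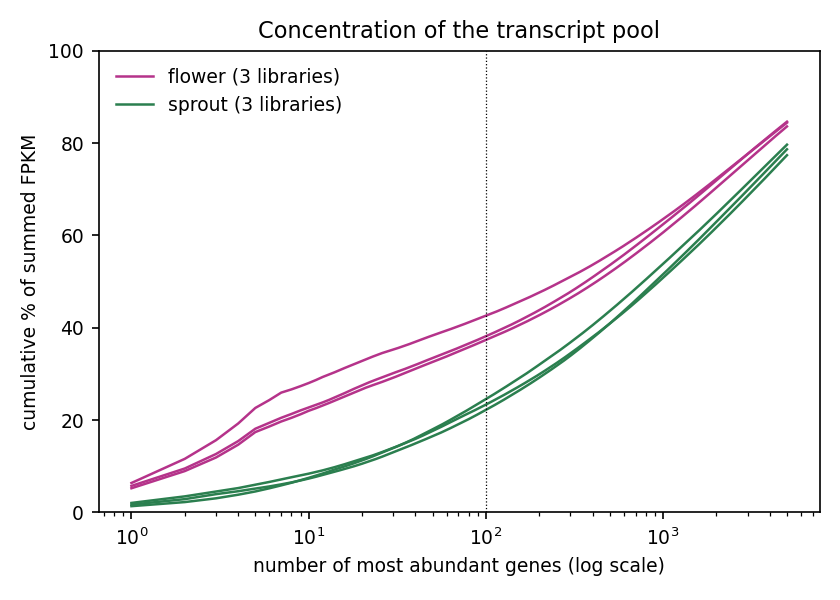
Cumulative share of summed FPKM (vertical axis, percent) held by the most abundant genes, ranked from high to low within each library (horizontal axis, log scale), with 1 line per library for 3 flower and 3 sprout libraries and a dotted line at 100 genes. The flower lines lie above the sprout lines, at 37.4 to 42.6% against 22.2 to 24.5% for 100 genes.

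Fewer genes were detected in flower. At 1 FPKM or more there were 26195, 26419 and 26224 genes in flower, against 27495, 28005 and 27624 in sprout. All flower libraries lay below all sprout libraries, although the flower libraries had more reads. The mean difference was -1429 genes (exact permutation test, 2-sided, p = 0.1, the smallest possible). It was -979 genes at 0.5 FPKM and -2298 genes at 5 FPKM. FPKM is a share of each library, and a larger share taken by a few genes lowers the values of the others; the part of this in the counts was not tested.

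Abundant genes were partly shared by both tissues. At a mean of 1000 FPKM or more there were 78 genes in flower and 106 in sprout, and 31 genes were in both sets, 39.7% of the flower set and 29.2% of the sprout set. Of the 78, 40 were called higher and 7 lower in flower, and 13 were under 10 FPKM in sprout. Of the 106, 3 were called higher and 69 lower in flower, and 29 were under 10 FPKM in flower. Among all genes tested, 9.6% were called higher and 20.7% lower, but a set picked for its level in one tissue favours calls in that direction, and the counts are a description.

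Asa0G05956.1 had the largest positive difference and the highest mean level in flower. It stood at 74350, 61144 and 68131 FPKM in flower, against 0.822, 0 and 3.52 FPKM in sprout. The sprout values rest on 9, 0 and 32 reads, and the count of 0 allows up to 3 reads or 0.268 FPKM. The log2 difference was 15.03 ± 0.49 (SE, n = 3 each, limma adjusted p = 1.35e-06). This gene alone held 5.79% ± 0.57 of the flower pool.

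Asa0G00303.1 followed with 39310, 32330 and 31882 FPKM in flower and 0.185, 0.132 and 0.999 FPKM in sprout. Between 769506 and 968010 reads per library lay behind the flower values, against 4, 3 and 18 reads in the sprout libraries. The log2 difference was 14.59 ± 0.24 (SE, limma adjusted p = 7.71e-08). The gene with the second-highest mean in flower had 60986, 43442 and 44807 FPKM in flower and 4.69, 5.85 and 10.3 FPKM in sprout. Its log2 difference was 12.66 ± 0.29 (SE, limma adjusted p = 3.31e-07). For each of these 3 genes the groups were far apart, and sprout replicate 3 was the highest of the sprout libraries.

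Asa4G03824.1 had the largest negative difference. It stood at 0, 0.115 and 0.214 FPKM in flower, on 0, 2 and 3 reads, against 10030, 4033 and 3693 FPKM in sprout. The count of 0 in flower allows up to 3 reads or 0.211 FPKM. The log2 difference was -12.23 ± 0.36 (SE, limma adjusted p = 8.31e-07). Asa1G03415.1 had 0.0543, 0.153 and 0.109 FPKM in flower, on 2, 7 and 4 reads, against 6487, 2120 and 1572 FPKM in sprout. Its log2 difference was -11.30 ± 0.47 (SE, limma adjusted p = 3.60e-06). Sprout replicate 1 was well above the other sprout libraries for both genes. Without it the differences were -11.77 and -10.69.

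The leading genes of the sprout were of another kind, abundant in both tissues. The gene with the highest mean in sprout had 2043, 2275 and 3155 FPKM in flower, against 8839, 23013 and 19170 FPKM in sprout. The log2 difference was -2.68 ± 0.45 (SE, limma adjusted p = 0.00198). The gene second in sprout had 2289, 2376 and 1869 FPKM in flower, against 15393, 15925 and 13401 FPKM in sprout. It differed by -2.78 ± 0.30 log2 units (SE, limma adjusted p = 0.000262). The groups did not overlap for either gene, and sprout replicate 1 was the lowest sprout library for the first of them.

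**Figure D3:**
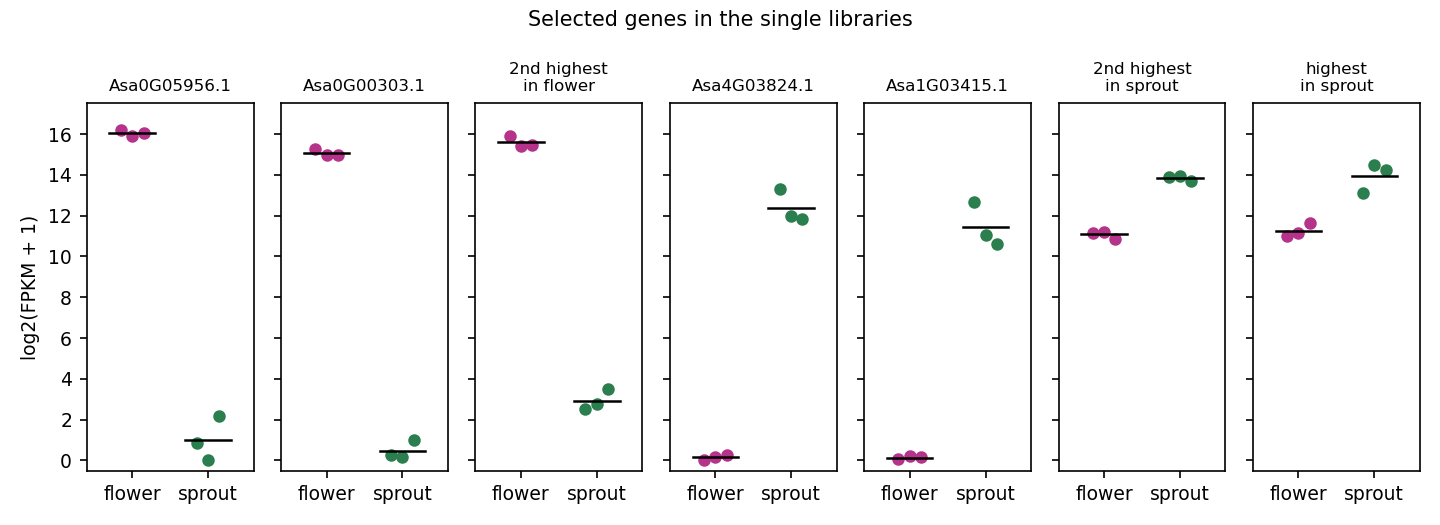
Level of the 7 selected genes as log2(FPKM + 1) (vertical axis) in the 3 flower libraries (left in each panel) and the 3 sprout libraries (right), with 1 point per library and a bar at the mean of the group. The first 3 genes lie above 14 in flower and below 4 in sprout, the next 2 lie below 1 in flower and above 10 in sprout, and the last 2 are high in both tissues.

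These genes were followed through the other tissues. Values in those tissues did not enter the selection rule, which was set with earlier results of these data known. Asa0G05956.1 averaged 15.4 FPKM ± 7.14 in 192-day bulbs, 389 ± 167 in 197-day, 5745 ± 1672 in 202-day and 7335 ± 3991 in 207-day bulbs (SD, n = 3 each). In 212-day bulbs it averaged 25929 ± 3734 FPKM. It reached 30983 ± 32244 in 217-day, 78167 ± 8186 in 222-day and 45939 ± 35338 in 227-day bulbs. In buds it averaged 11.3 ± 16.0 FPKM, in pseudostems 5.98 ± 7.39, in roots 0.186 ± 0.323 and in leaves 0.0851 ± 0.147. At 217 days replicate 3 stood apart, at 68213 FPKM against 12694 and 12042 FPKM in the other 2 libraries, whose mean was 12368 FPKM. The flower mean was 67875 ± 6607 FPKM, and the flower range overlapped those of 222-day and 227-day bulbs, and that of 217-day bulbs only through replicate 3.

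Asa0G00303.1 was likewise low in 192-day bulbs and highest in 222-day and 227-day bulbs. Its means were 2.06 FPKM ± 1.52 in 192-day bulbs, 69.5 ± 17.6 in 197-day, 1418 ± 521 in 202-day, 2807 ± 2657 in 207-day and 9664 ± 1539 in 212-day bulbs. They were 11236 ± 9962 in 217-day, 41689 ± 6723 in 222-day and 34925 ± 21275 in 227-day bulbs. The gene averaged 5.29 ± 9.01 FPKM in buds, 4.35 ± 6.99 in pseudostems and 0.0971 ± 0.0373 in roots, and was at 0 in all 3 leaf libraries. The SD was large at 227 days because replicate 2 stood apart, at 10362 FPKM against 47556 and 46857 FPKM in the other 2 libraries. Replicate 3 of the 217-day bulbs had 22732 FPKM, and the mean of the other 2 was 5488 FPKM. Replicate 2 of the 227-day bulbs had 5434 FPKM of Asa0G05956.1, against 70465 and 61918 FPKM in the others of that age. Without these 2 libraries, both genes had a lower mean at 217 days than at 212 days, and their means at 227 days were 66192 FPKM for Asa0G05956.1 and 47207 FPKM for Asa0G00303.1.

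The gene second in flower averaged 2.69 FPKM ± 2.66 in 192-day bulbs, 217 ± 43.1 in 197-day, 4371 ± 111 in 202-day and 3832 ± 2776 in 207-day bulbs. It averaged 14153 ± 2418 in 212-day, 15856 ± 12069 in 217-day, 65786 ± 19228 in 222-day and 67278 ± 1303 in 227-day bulbs. Without replicate 3 its 217-day mean was 8918 FPKM. It stayed at 15.0 ± 19.9 FPKM in pseudostems, 2.70 ± 3.05 in buds, 1.17 ± 0.66 in leaves and 0.0981 ± 0.107 in roots. Its level in flower, 49745 ± 9759 FPKM, lay between those of 217-day and 222-day bulbs, with ranges that overlapped the 222-day one.

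The 2 genes most reduced in flower had the opposite distribution. Asa4G03824.1 averaged 3349 FPKM ± 128 in leaves, 1820 ± 1227 in pseudostems and 186 ± 4.52 in buds, below its sprout mean of 5919 ± 3565. In roots it averaged 0.0402 ± 0.0696 FPKM. It was at 0 in every bulb library of 192, 197, 202 and 212 days and reached at most 2.16 FPKM in any other bulb library. Asa1G03415.1 averaged 1836 ± 145 FPKM in leaves, 1289 ± 852 in pseudostems and 314 ± 48.1 in buds, against a sprout mean of 3393 ± 2693. It averaged 0.0306 ± 0.0529 FPKM in roots and at most 2.65 ± 2.38 FPKM in bulbs, at 207 days. Neither gene was thus confined to sprouts, and flowers, roots and bulbs shared their near absence.

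The 2 genes most abundant in sprout differed from each other. The first averaged 11421 ± 1220 FPKM in leaves, 10622 ± 2272 in roots, 9769 ± 1096 in pseudostems and 7038 ± 1948 in buds. In bulbs it averaged between 519 ± 62.8 at 197 days and 1975 ± 892 at 217 days, and its flower mean of 2491 ± 587 FPKM was nearer to bulbs than to the other organs. The second was at 14906 ± 1331 FPKM in sprout and averaged 614 ± 207 in leaves, 589 ± 371 in pseudostems and 553 ± 294 in buds. It averaged only 1.21 ± 0.96 FPKM in roots. In bulbs its mean was 82.4 ± 28.7 FPKM at 192 days and 2301 ± 1827 at 227 days, and in flower it was 2178 ± 271.

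Some genes were clearly expressed in one tissue and near the limit of detection in the other. At 5 FPKM or more in all 3 flower libraries and under 0.5 FPKM in all 3 sprout libraries there were 220 genes, with a median level of 20.7 FPKM in flower. At 5 FPKM or more in all 3 sprout libraries and under 0.5 FPKM in all 3 flower libraries there were 257 genes, with a median of 23.7 FPKM in sprout. The counts depended on these limits: with 0.1 in place of 0.5 FPKM they were 86 and 103, and with 10 in place of 5 FPKM 135 and 165. All genes of both sets were called, and the counts are given as a description of the comparison that defined them.

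The 220 flower genes recurred in bulbs more than in leaves. At 5 FPKM or more in all 3 libraries there were between 51 of them in 192-day bulbs and 85 in 212-day bulbs. Bulbs of 217, 222 and 227 days had 78, 83 and 67. Outside bulbs there were 75 in roots, 48 in buds, 40 in pseudostems and 21 in leaves. Among all 58219 IDs, single libraries had 16531 to 16706 genes at this level in 222-day bulbs and 16588 to 17242 in leaves. Of the 220 genes, 37.7% reached it in 222-day bulbs and 9.55% in leaves. The share of the list thus lay above that of all IDs in 222-day bulbs and below it in leaves. The measures are unlike, since list genes needed all 3 libraries and were picked by their levels in flower and sprout. Under 0.5 FPKM in all 3 libraries there were 11 in 222-day bulbs, 84 in 192-day bulbs and 122 in leaves. A mean of 5 FPKM or more in bulbs of 217, 222 or 227 days was found for 146 of the 220 genes, and one in leaf or pseudostem for 68. The bulb count could be met in more groups than the other, and neither count was computed for all genes. Every one of the 220 reached 0.5 FPKM in at least 1 of the 36 other libraries, so none was seen in flower alone.

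The 257 sprout genes recurred in leaves, pseudostems and buds more than in roots and bulbs. At 5 FPKM or more in all 3 libraries there were 172 of them in leaves, 119 in pseudostems and 100 in buds, against 12 in roots and between 1 and 5 in bulbs of any age. Among all IDs, single libraries had 16588 to 17242 genes at this level in leaves, 17959 to 18635 in pseudostems and 19444 to 20241 in buds. Single root libraries had 15433 to 16971, and single bulb libraries 15172 to 18554, each of 58219 IDs. Of the 257 genes, 66.9% reached this level in leaves, 46.3% in pseudostems and 38.9% in buds. In roots 4.67% did, and in bulbs between 0.389% at 217 and 227 days and 1.95% at 192 days. These shares lay above those of all IDs in leaves, pseudostems and buds and below them in roots and bulbs. The measures are unlike, since list genes needed all 3 libraries and were picked by their levels in sprout and flower. A mean of 5 FPKM or more in leaf or pseudostem was found for 205 of the 257 genes, and one in bulbs of 217, 222 or 227 days for 7. A single gene stayed under 0.5 FPKM in all 36 other libraries. It was at 0 in all 3 flower libraries, which allows up to 0.0766, 0.0617 and 0.0762 FPKM, against 61.1, 25.8 and 14.2 FPKM in sprout. Its log2 difference was -4.88 ± 0.46 (SE, limma adjusted p = 0.000132), its highest value elsewhere was 0.263 FPKM on 6 reads, and it was singled out after its values were seen.

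The full lists of called genes also had different places in the plant. The 2743 genes higher in flower held 44.8% ± 2.88 of summed FPKM in flower, against 4.02% ± 0.48 in sprout, values that the choice of genes fixes in direction. Outside the comparison, they held 8.01% ± 0.24 in 192-day bulbs, 9.37% ± 0.32 in 197-day, 13.7% ± 0.64 in 202-day and 13.4% ± 2.06 in 207-day bulbs. Their share was 21.2% ± 1.87 in 212-day, 21.5% ± 7.58 in 217-day, 41.8% ± 4.65 in 222-day and 44.6% ± 5.06 in 227-day bulbs. Replicate 3 of the 217-day bulbs stood apart with 30.2%, against 16.6 and 17.8% in the other 2 libraries. Replicate 2 of the 227-day bulbs, which was low for Asa0G05956.1 and Asa0G00303.1, was the highest of its age here. It had 50.3%, against 42.5 and 40.8% in the other 2 libraries, and so raised the 227-day mean. Roots gave 19.4% ± 0.99, pseudostems 10.5% ± 1.47, buds 7.69% ± 0.29 and leaves 6.83%, with single leaf libraries between 5.56 and 7.50%.

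Few genes made up most of this share in flower and in the oldest bulbs. The 136 genes at least 5 log2 units higher in flower held 28.2% ± 3.22 of the pool in flower, 30.2% ± 5.28 in 222-day bulbs and 34.0% ± 6.32 in 227-day bulbs, but 1.22% ± 0.15 in roots. In 217-day bulbs they held 5.74, 6.23 and 19.4% in the single libraries, of list shares of 16.6, 17.8 and 30.2%. In 227-day bulbs they held 41.3% in replicate 2, against 30.5 and 30.2% in the other 2 libraries. The root share of the list came from genes with smaller differences between flower and sprout.

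The 5925 genes lower in flower held 6.79% ± 0.37 in flower, against 39.6% ± 4.31 in sprout. They held 40.4% ± 4.14 in leaves, 26.2% ± 2.14 in pseudostems, 17.8% ± 0.60 in buds and 13.8% ± 0.16 in roots. In bulbs their share lay between 9.40% ± 0.82 at 227 days and 13.5% ± 0.56 at 207 days. Leaves and sprouts overlapped in this share, and all other groups lay below both.

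**Figure D4:**
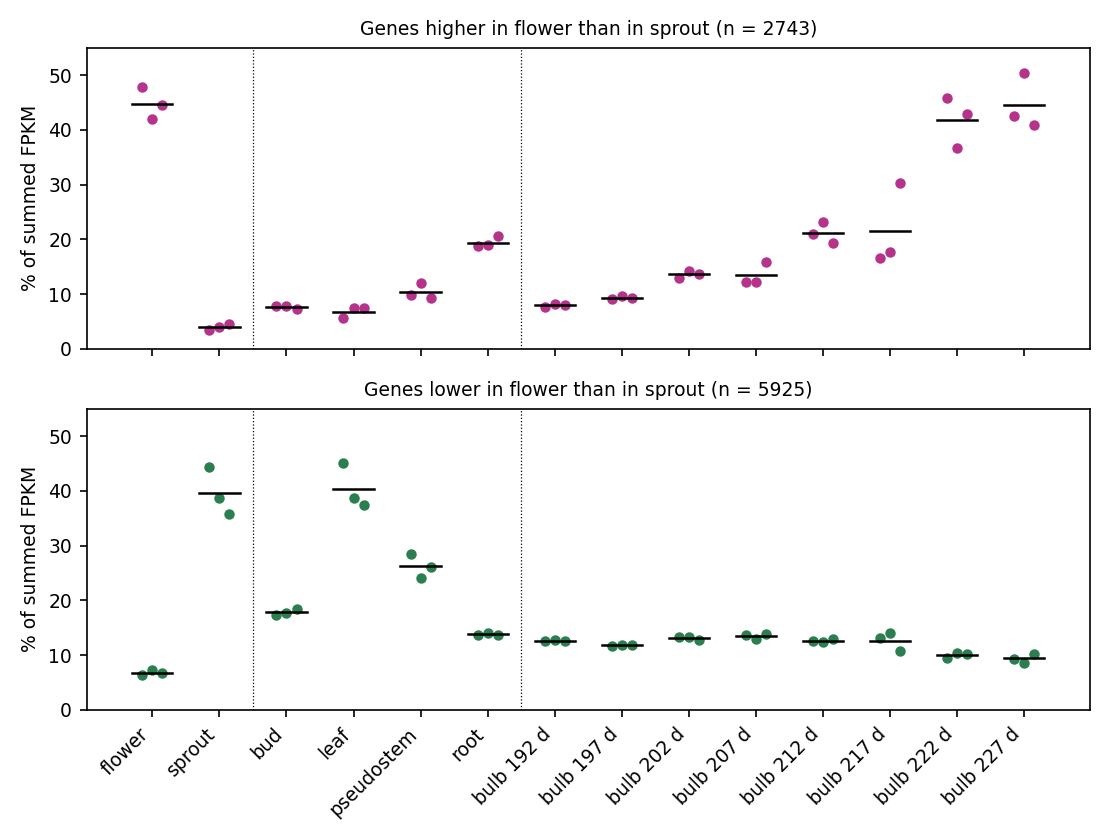
Share of summed FPKM (vertical axes, percent) held by the 2743 genes higher in flower (top) and the 5925 genes lower in flower (bottom) in each library of the 14 groups, with 1 point per library and a bar at the mean of 3. The upper list reaches 41.8% in 222-day and 44.6% in 227-day bulbs, beside 44.8% in flower, and the lower list is highest in leaf and sprout.

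Counted by gene rather than by share of the pool, roots came first for the genes higher in flower. Among the 12 groups outside the comparison, roots were highest for 971 of the 2743 genes higher in flower (35.4%, against 13.1% of all genes tested), and bulbs of 217 to 227 days for 543 (19.8%, against 11.4%). Bulbs of any of the 8 ages were highest for 1003 (36.6%, against 39.2%), and 217-day bulbs alone for 135 (4.92%, against 4.73%). The median log2 level of the list lay 0.70 above that of all tested genes in roots, and 0.08, 0.01 and 0.04 below it in bulbs of 217, 222 and 227 days. Leaves were highest for 205 of them (7.47%, against 15.8%) and buds for 318 (11.6%, against 22.9%). Of the 5925 genes lower in flower, leaves were highest for 2090 (35.3%, against 15.8%), buds for 1322 (22.3%, against 22.9%), pseudostems for 690 (11.6%, against 9.07%) and roots for 338 (5.70%, against 13.1%). With flower and sprout included, flower itself was highest for 830 of the first list (30.3%, against 4.83% of all genes tested), and sprout for 1956 of the second (33.0%, against 11.4%), a direction that the choice of the lists favours.

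The lists were then read in 3 comparisons made wholly outside the 6 libraries, with calls by the same limma rule over 33844 genes. Of the 2743 genes, 2702 passed the filter there, and of the 5925, 5862 did. These comparisons are not independent of each other where they share the leaf libraries, and they describe the lists without a test of the lists.

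In 217-day bulbs against leaves, 18% of all genes were called higher and 15.4% lower, with a median log2 difference of 0.16. Of the genes higher in flower, 1048 (38.8%) were higher in the bulbs and 413 (15.3%) lower, with a median of 0.61. Of the genes lower in flower, 750 (12.8%) were higher in the bulbs and 2306 (39.3%) lower, with a median of -0.50. The list higher in flower thus differed from all genes in its share of higher calls, while its share of lower calls was near the background.

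In roots against leaves, 14.9% of all genes were higher and 16.1% lower, with a median of -0.09. Of the genes higher in flower, 1221 (45.2%) were higher in roots and 216 (7.99%) lower, with a median of 0.90. Of the genes lower in flower, 367 (6.26%) were higher in roots and 2684 (45.8%) lower, with a median of -0.88. Both lists lay on opposite sides of the background in this pair of organs, neither of which was part of the comparison.

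In bulbs of 227 against 192 days, 7.69% of all genes were higher and 19.2% lower, with a median of -0.20. Of the genes higher in flower, 875 (32.4%) were higher at 227 days and 384 (14.2%) lower, with a median of 0.49. Of the genes lower in flower, 477 (8.14%) were higher at 227 days and 1185 (20.2%) lower, with a median of -0.19, close to all genes. Median-of-ratios scaling moved the median of all genes by 0.21 in this comparison. It left the list higher in flower with 1064 higher and 283 lower calls and turned the lower list to 740 higher and 819 lower, beside 11.7% higher and 12.8% lower of all genes. The same scaling moved the median by -0.14 in 217-day bulbs against leaves and by 0.13 in roots against leaves, where each list kept its larger direction of calls. Without replicate 2 of the 227-day bulbs, the library that stood apart above, the list higher in flower had 955 higher and 333 lower calls and the list lower in flower had 560 and 962.

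**Figure D5:**
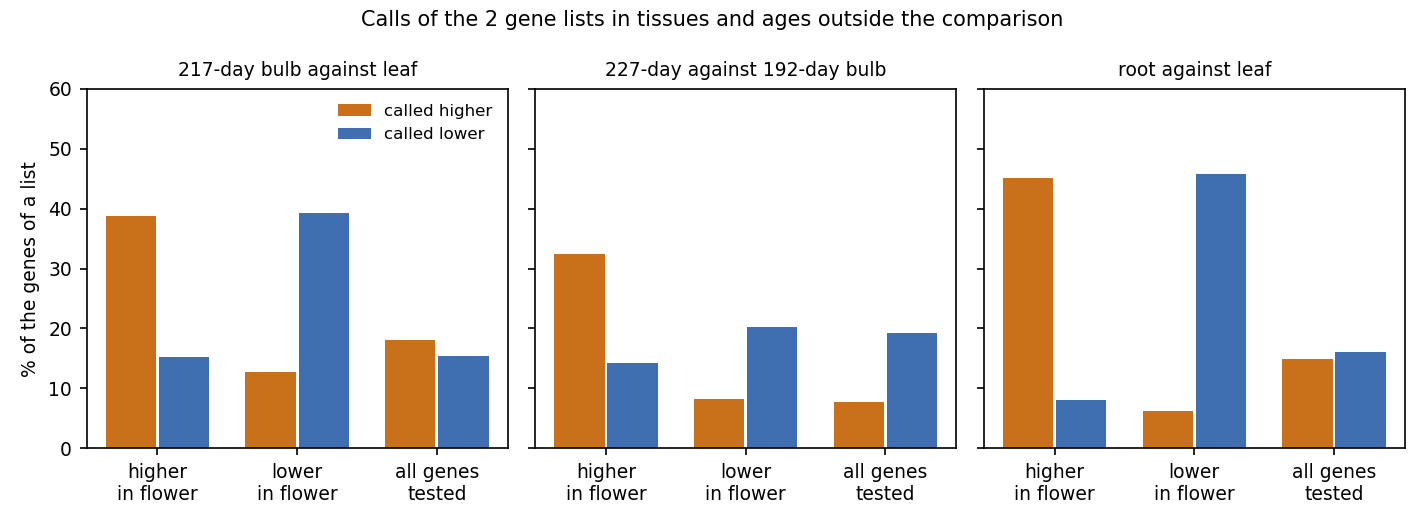
Share of the genes of each list called higher (left bar of a pair) and lower (right bar) in 217-day bulbs against leaves, 227-day against 192-day bulbs and roots against leaves (vertical axis, percent of the list), for 2702 genes higher in flower, 5862 lower in flower and all 33844 genes tested. The list higher in flower has 38.8, 32.4 and 45.2% higher calls in the 3 comparisons, and the list lower in flower follows all genes closely in the middle one.

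Whole profiles were compared as well. Across 34160 genes, the mean log2 levels of flower correlated with those of bulbs at r = 0.916 (217 days), 0.916 (222 days) and 0.915 (227 days). With younger bulbs the values were 0.784 (192 days), 0.816 (197 days), 0.884 (202 days), 0.870 (207 days) and 0.882 (212 days). The values were 0.812 with pseudostem, 0.794 with sprout, 0.791 with bud, 0.782 with root and 0.723 with leaf. The sprout profile correlated most with pseudostem (0.867), leaf (0.846) and bud (0.839) and least with root (0.670). These are correlations across genes, given as a description, and they share each group's library preparation and depth.

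The 100 genes of highest mean level overlapped between tissues. Flower shared 69 of its 100 with bulbs of 217 days and 71 each with bulbs of 222 and 227 days. With bulbs of 202, 207 and 212 days it shared 58, 53 and 63, and with bulbs of 192 and 197 days 20 and 27. It shared 44 with pseudostem, 40 with sprout, 37 with root, 31 with bud and 25 with leaf. Sprout shared 52 of its 100 with leaf, 47 with pseudostem, 31 with bud and 24 with root, and with bulbs between 17 at 192 days and 40 at 227 days. By both measures the libraries labelled flower were nearest to bulbs of 217 to 227 days, followed by bulbs of 202 to 212 days, and further from every other organ. What the flower samples held beyond their label was not tested.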

How the data were processed

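The authors deposited FPKM values for 58219 gene IDs in 42 columns, each matched to 1 sample by its title, with 0 columns left over. The submitters' processing notes name Bowtie2, an aligner, and RSEM, which estimates transcript abundance. Their versions, the genome build and how reads of near-identical genes were divided: not given in the sources used here. Each sample's total RNA was extracted separately and made into paired-end Illumina libraries, per the labels' protocols.

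For all 45750 genes above 0, the FPKM values could be turned into whole reads within a tolerance of 0.001 reads. A gene above 0 in only 1 library fits whatever its value. Of the genes above 0, 38950 were so in at least 10 libraries, and all of these came out whole. The recovered reads gave the depth, between 5.92 and 35.4 M per library over the series, and 1 alternative fit; RSEM estimates need not be whole, so how reads were counted is not known. Limits for a count of 0 allow 3 reads and cover counting error only. The 3 flower and 3 sprout libraries differed pairwise within their group by more than sampling noise (chi-square per degree of freedom from 30.4 to 75.2).

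The 28573 genes that reached 1 FPKM in 3 or more of the 6 libraries were fitted on log2(FPKM + 1), pseudocount 1, with limma 3.58.1 in R 4.3.3. The fit used group means of the 6 libraries, a variance trend, 2-sided tests and Benjamini-Hochberg adjustment. A gene was called where the adjusted p was under 0.05 and the log2 difference 1 or more in size. The 3 comparisons outside flower and sprout used the same rule in a fit of 36 libraries in 12 groups. Single values per library were tested by exact permutation in Python 3.11.15 with SciPy 1.17.1. The limma fit and the recovery of reads were tested on simulated data, the recovery only for genes above 0 in at least 10 libraries.

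Genes selected by difference were the 2 largest differences in each direction among called genes without overlap between the groups and with 10 FPKM or more on average in the higher tissue. Those selected by level were the 2 genes with the highest mean in each tissue. The genes, lists and tests were chosen with earlier results of these data known. Same-numbered replicates of flower and sprout did not deviate together, so the numbers were not treated as pairs. Alternatives covered the pseudocount, the filter, scaling, the libraries fitted, the recovered reads, a replicate block, list and detection limits, and leaving out each replicate.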

Additional observations from a re-analysis of the deposited data

How the results depend on the processing

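Every selected gene kept its direction and its call under all 17 alternatives tried for it. For the genes selected by difference and those most abundant in flower this is no test. Their differences were too large for these settings to undo. The differences of the genes most abundant in sprout ranged from -3.51 to -2.28 and from -3.63 to -2.37. Counts of called genes have no direction that could reverse. Of 293 alternative values, 274 stayed within the limits set for the same result, and the values of the selected genes are among the 293. Median-of-ratios scaling gave 3895 genes lower in flower and quantile normalization 3840, against 5925 as deposited; the 20 genes left out in a further scaling (3514 higher, 4326 lower) held 25.2 to 31.2% of the flower libraries and 5.81 to 7.25% of the sprout libraries. The count higher was 2743 as deposited and lay between 1931 (filter of 5 FPKM, 19262 genes tested) and 3826. Voom on the recovered reads gave 2984 higher and 7641 lower, and a pseudocount of 0.1 gave 3047 and 7240. Leaving out 1 library gave 2609 to 2843 higher and 5543 to 6171 lower.

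A fit with the replicate number as a block gave 2753 higher and 5917 lower, of which 2707 and 5875 were shared with the fit without it. Deviations of same-numbered libraries correlated at -0.03, 0.08 and -0.04, and not every library correlated best with its own number.

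With an upper limit of 0.1 FPKM in the lacking tissue, 86 genes were detected in flower and 103 in sprout; with a lower limit of 10 FPKM in the other, 135 and 165. In bulbs of 227 against 192 days, the list lower in flower had 740 higher calls after median-of-ratios scaling. Lists limited to a log2 difference of 2 hold fewer genes by construction. Of 1272 genes higher and 1871 lower in flower tested so, the higher and lower calls were 545 and 214 (217-day bulb against leaf), 530 and 148 (227-day against 192-day bulb) and 643 and 113 (root against leaf) for genes higher in flower. For genes lower in flower they were 177 and 1199, 176 and 423, and 123 and 1200. All genes tested had 18 and 15.4%, 7.69 and 19.2%, and 14.9 and 16.1% such calls. Depth limits genes under 1 FPKM, for which the median gene has fewer than 14.5 to 24.0 reads, depending on the library, and 3 libraries a group limit the exact tests to p = 0.1.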

Other observations

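Called genes tended to stand beside others of the same direction in the ID numbering. Among tested genes whose ID number differs by 1, the neighbour of a gene higher in flower was itself higher in 27.0% of 3031 cases, against 9.16% for the neighbours of any tested gene. The neighbour of a gene lower in flower was lower in 33.1% of 6990 cases, against 21.1% for any tested gene. Unbroken runs of at least 2 numbers held 744 of the genes higher in flower in 335 runs, the longest of 5 genes, and 2053 of the genes lower in flower in 896 runs, the longest of 7. How many such runs would arise without any clustering was not computed, and a longer list gives more of them. The table does not say whether ID numbers follow the genome, and whether neighbours are similar copies that share reads was not tested. Across the 9 ID prefixes, between 8.67 and 10.6% of tested genes were higher and between 19.8 and 21.9% lower in flower.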
